A study of Mus musculus with 36 samples.

Results

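RNA of mouse embryos labelled KRAB was compared with RNA of embryos labelled Ctrl at the 2-cell stage, across all genes of the series' table of estimated counts. The comparison takes in 13 of the series' 36 libraries, namely those whose labels give the developmental stage 2C and either the treatment KRAB (6 libraries) or the treatment Ctrl (7 libraries). A further 4 libraries of the same stage, labelled NI, shared the fit of 17 libraries, and their levels are given for some genes as a description. Levels are in CPM, counts scaled to a common library size. Every library was a pool of 4 to 5 whole embryos that had been injected and cultured, as the series states without setting any group apart, with cDNA prepared by SMART-seq v4, a kit that copies whole transcripts from very little RNA. KRAB is the name of a repressor domain, and the title of the series concerns LINE-1 retrotransposons and open chromatin after fertilisation. The labels do not say what the KRAB domain was joined to, what the Ctrl embryos received, what NI stands for, or the strain of the mice, and LINE-1 transcripts were not analysed here.

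The mouse embryo begins with transcripts stored in the growing egg, which are degraded while the embryo's own genome is switched on, with the main wave in the 2-cell embryo. That wave includes genes read almost only at this stage, such as the Zscan4, Tcstv and Tdpoz families, and genes of the Obox family. A KRAB domain tethered to DNA recruits TRIM28 (KAP1), which brings in the histone methyltransferase SETDB1, HP1 proteins and the NuRD deacetylase complex, and retrotransposons are natural targets of this machinery.

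Libraries of the same label differed widely. KRAB libraries held 1296375 to 4336022 counts and Ctrl libraries 1043740 to 10035066, a difference of -0.280 in the mean log10 total (exact permutation test over 1716 splits, two-sided, p = 0.133, adjusted over 3 measures 0.399, and p from 0.0325 to 0.230 with each library left out). Without Ctrl replicate 6 that difference was -0.385. The 2-cell marker Zscan4c and the homeobox gene Obox5 had counts in each of the 13 libraries. The rank correlation of libraries over the genes tested was 0.767 to 0.930 within KRAB, 0.506 to 0.967 within Ctrl and 0.483 to 0.903 between them, as a description over libraries that share their genes. Ctrl replicates 1, 3, 5 and 7 resembled each other at 0.851 to 0.967. The library closest to Ctrl replicate 6 was KRAB replicate 3, and the library closest to KRAB replicate 1 was Ctrl replicate 4, whereas the other 11 were each closest to a library of their own label. Nothing in the labels names separate cultures or animals, so the p-values reflect how these pools varied, which may be technical only.

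**Figure D1:**
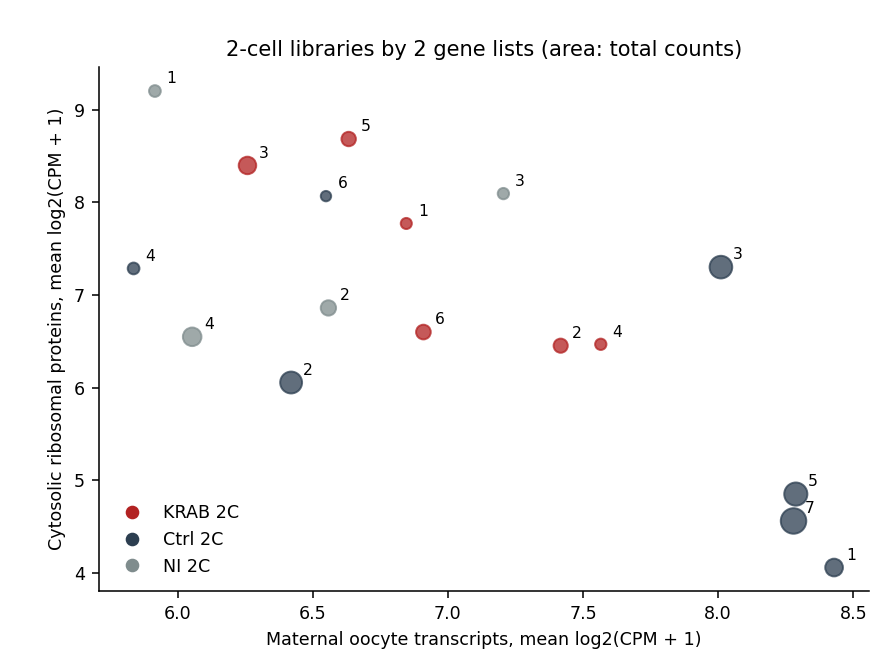
Each point is 1 library of the 2-cell stage (KRAB, Ctrl or NI, numbered by replicate), placed by its mean log2(CPM + 1) over maternal oocyte transcripts (x axis) and over cytosolic ribosomal proteins (y axis), with an area that grows with its total counts. Ctrl replicates 1, 3, 5 and 7 lie furthest to the right, Ctrl replicates 2 and 6 lie among the KRAB and NI libraries on the x axis, and Ctrl replicate 4 lies furthest to the left.

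With edgeR's quasi-likelihood test, 0 of 11799 genes differed at an adjusted p under 0.05 (0.0%), and the smallest adjusted p was 0.222. The genes at an unadjusted p under 0.05 numbered 1838 (15.6%), with 456 higher in KRAB (3.86%) and 1382 lower (11.7%). Chance alone would give 589.95 on average. Genes vary together across these libraries, so a single count can lie far from that average by chance. These shares are the background for each list below. Over all genes tested the median log2 fold change was -0.13, and 44.75% of the genes had a positive value. The KRAB and Ctrl libraries did not overlap in 24 genes (0.203%), 13 of them higher in KRAB (0.11%) and 11 lower (0.0932%). By chance alone a gene would separate the groups, in either direction, in a share of 0.001166 of the 1716 possible splits. Part of the 24 genes may therefore separate by chance. Other tools and subsets gave other counts: with DESeq2 the calls were 200 (1.45%), of which 46 were higher in KRAB (0.332%) and 154 lower (1.11%). Sample quality weights in limma-voom gave 5234 calls (44.4%), 2562 higher (21.7%) and 2672 lower (22.6%). Without these weights limma-voom had 0 calls. The weights were 0.27, 0.31 and 0.31 for Ctrl replicates 2, 4 and 6, and 0.88 to 2.99 for the other Ctrl libraries. Without Ctrl replicate 6, edgeR called 159 genes (1.34%), 69 higher (0.583%) and 90 lower (0.76%), and with all 36 libraries it called 6 (0.0456%), 1 higher (0.0076%) and 5 lower (0.038%). With the log2 library total as a covariate edgeR had 0 calls and 538 genes at an unadjusted p under 0.05 (4.56%), 390 higher (3.31%) and 148 lower (1.25%). That count is below the 589.95 of chance alone. Another fit took only the 9 shallower libraries, 6 KRAB and 3 Ctrl (replicates 1, 4 and 6) of under 5000000 counts each, with the 4 NI libraries. There edgeR had 0 calls and 229 genes at an unadjusted p under 0.05 (2.0%), 85 higher (0.743%) and 144 lower (1.26%). Chance alone would give 571.9 in that fit. Thinned to 1043740 counts a library, 0 of 9396 genes were called and 12.7% had such a p, 258 higher (2.75%) and 934 lower (9.94%). In pools of whole embryos, fewer cells with a transcript and less of it per cell cannot be told apart.

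**Figure D2:**
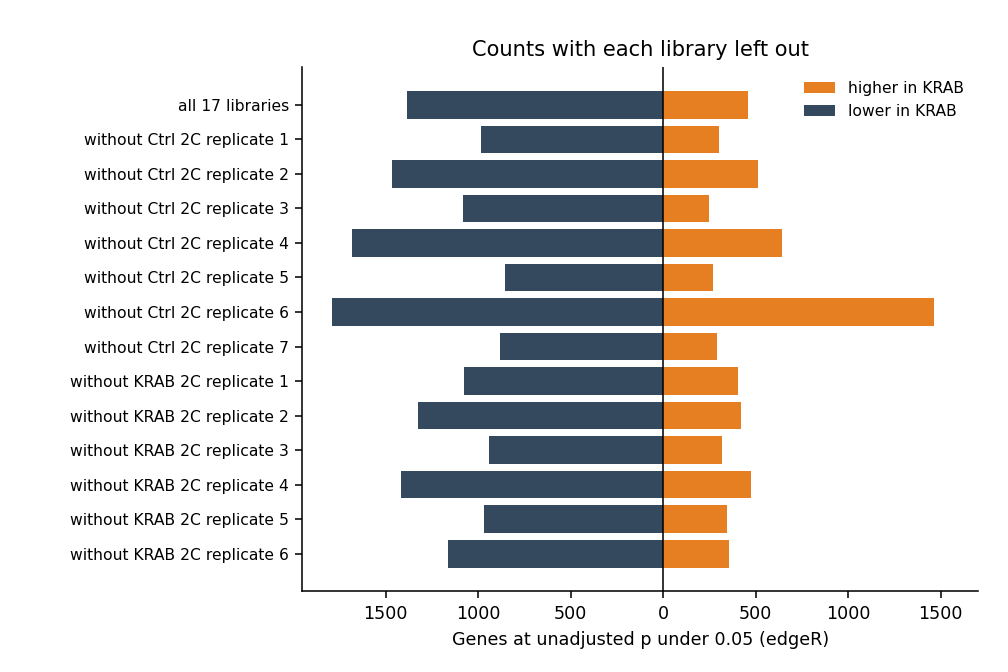
Bars give the number of genes at an unadjusted p under 0.05 in edgeR, to the right for genes higher in KRAB and to the left for genes lower in KRAB, with all 17 libraries and with each KRAB or Ctrl library left out. The higher genes range from 248 without Ctrl replicate 3 to 1464 without Ctrl replicate 6, and the lower genes from 855 without Ctrl replicate 5 to 1790 without Ctrl replicate 6.

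Transcripts of the 2-cell wave included Tmem92, the gene with the smallest p among those higher in KRAB. Of 52 genes on the list of 2-cell and genome activation genes, 44 were tested, 28 had a positive log2 fold change, and 8 were higher and 3 lower at an unadjusted p under 0.05. The list's median was 0.39, against -0.13 over all genes. It was 0.42 with the library total as covariate, 0.35 in the 9 shallower libraries and 0.52 in the thinned libraries. Tmem92, which encodes a transmembrane protein and is read in the 2-cell embryo (chromosome 11, 94777217 to 94782703 in GRCm38), stood at 202 to 618 CPM (median 246) in the 6 KRAB libraries. It stood at 24.6 to 134 CPM (median 94.5) in the 7 Ctrl libraries and at 141 to 261 CPM in the 4 NI libraries. Every KRAB library lay above every Ctrl library, with KRAB replicate 1 the highest, and the log2 fold change was 1.85 ± 0.42 (SE, edgeR adjusted p = 0.222).

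Other members with separate groups came from a small cluster of genes on chromosome 13. AF067061 (chromosome 13, 120263114 to 120264517) had 143 to 429 CPM (median 193) in KRAB and 19.12 to 132 CPM (median 69.7) in Ctrl, a log2 fold change of 1.95 ± 0.56 with an edgeR adjusted p of 0.222. Its neighbour BC147527 (chromosome 13, 120300392 to 120308779), which is not on the list, had 105 to 359 CPM (median 157) against 10.02 to 78.5 CPM (median 41.7), a difference of 2.15 ± 0.52 (adjusted p = 0.222). For both genes the lowest KRAB library exceeded the highest Ctrl library, and KRAB replicate 1 was again the highest. Tcstv3, a stem cell and 2-cell variable group gene of the same cluster, overlapped between groups, since Ctrl replicate 6 reached 289 CPM among KRAB libraries of 240.2 to 833 CPM (median 305). Its log2 fold change was 1.799 ± 0.55, and that of Tcstv1, a related gene chosen after its values were seen, was 1.07 ± 0.54. Single values in this family are uncertain, because RSEM divides reads between similar genes: of the 31-base words in their transcripts, Tcstv1 and Tcstv3 shared 29.9% of the smaller set, and AF067061 and Tcstv3 shared 17.4%.

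The stretches just before the starts of 4 genes are shown, picked without a further rule from the 24 genes whose groups did not overlap. The stretches precede AF067061, BC147527 and Gadd45b from the higher side and Mthfd1 from the lower side. Each is the 250 bases before the start that RefSeq gives on GRCm38, on the plus strand, and capitals mark GGATTA or its reverse complement TAATCC, the letters that homeodomain proteins of the OTX type recognise. They lie at chr13:120262845-120263094, chr13:120300142-120300391, chr10:80929841-80930090 and chr12:76254982-76255231.
AF067061: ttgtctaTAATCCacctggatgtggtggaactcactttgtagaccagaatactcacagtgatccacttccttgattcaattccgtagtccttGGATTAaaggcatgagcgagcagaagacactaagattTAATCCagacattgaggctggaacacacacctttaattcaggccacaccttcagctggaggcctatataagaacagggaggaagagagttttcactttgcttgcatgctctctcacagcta
BC147527: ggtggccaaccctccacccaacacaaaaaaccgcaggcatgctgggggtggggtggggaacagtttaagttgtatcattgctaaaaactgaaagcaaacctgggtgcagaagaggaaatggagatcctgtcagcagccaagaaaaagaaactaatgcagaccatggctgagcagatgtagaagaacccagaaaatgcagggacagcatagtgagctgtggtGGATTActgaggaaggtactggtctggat
Gadd45b: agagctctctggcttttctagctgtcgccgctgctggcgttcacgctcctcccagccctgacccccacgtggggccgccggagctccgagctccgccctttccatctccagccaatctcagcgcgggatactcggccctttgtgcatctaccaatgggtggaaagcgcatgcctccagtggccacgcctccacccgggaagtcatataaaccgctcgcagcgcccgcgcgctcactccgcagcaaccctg
Mthfd1: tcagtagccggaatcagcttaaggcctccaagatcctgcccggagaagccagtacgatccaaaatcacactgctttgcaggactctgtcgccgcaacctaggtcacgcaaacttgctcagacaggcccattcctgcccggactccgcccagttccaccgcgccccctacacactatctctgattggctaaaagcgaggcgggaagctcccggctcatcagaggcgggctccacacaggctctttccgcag
The letters occur 3 times before AF067061, 1 time before BC147527 and 0 times before Gadd45b and Mthfd1, while 6.25% of 32851 RefSeq windows of this length hold them on either strand. CG pairs number 2, 1, 22 and 15 in the same order, against a median of 6 over all windows. Such matches describe the sequence and are not binding sites shown by these data.

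Further members of the 2-cell list stood higher in KRAB without separation of the groups. Rfpl4b, a RING finger protein-like gene, had 80.7 to 133 CPM (median 107) in KRAB and 3.35 to 88.5 CPM (median 17.3) in Ctrl (1.51 ± 0.61), with Ctrl replicates 2 and 6 inside or next to the KRAB range. Gm4850 stood at 332 to 932 CPM (median 642) against 22.99 to 566 CPM (median 110.5) (1.56 ± 0.62), and Gm8300 at 163 to 652 CPM (median 335) against 86.3 to 279.8 CPM (median 142) (1.205 ± 0.42). Obox3, an oocyte-specific homeobox gene, stood at 271 to 1613 CPM (median 403) against 30.2 to 567 CPM (median 68.9) (1.42 ± 0.701, unadjusted p = 0.0568). Tdpoz1, a TRAF and BTB domain gene, stood at 43.02 to 409 CPM (median 48.8) against 8.80 to 98.4 CPM (median 28.7) (1.39 ± 0.64). KRAB replicate 1 was far above the other KRAB libraries for Obox3 and Tdpoz1, while the Ctrl libraries 2 and 4 reached into the KRAB range for both.

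The same list also held genes of opposite or no direction. Usp17ld, of a family of deubiquitinating enzymes, stood at 1.96 to 23.05 CPM (median 6.56) in KRAB and 10.5 to 38.9 CPM (median 26.1) in Ctrl (-1.53 ± 0.58). Klf17, a Krüppel-like transcription factor, stood at 357 to 1134 CPM (median 805) against 402 to 3511 CPM (median 1737) (-1.11 ± 0.503), and Dppa2, an activator of the Dux locus, at 138 to 159 CPM (median 145) against 63.4 to 444 CPM (median 281) (-0.94 ± 0.43). The 6 KRAB libraries lay close together for Dppa2, while Ctrl replicate 6 lay below them and the other 6 Ctrl libraries above them. Zscan4c, a member of the telomere-associated family that marks this stage, stood at 22.1 to 274 CPM (median 75.7) in KRAB and 46.6 to 531 CPM (median 137) in Ctrl. Its log2 fold change was -0.55 ± 0.79 (adjusted p = 0.724), and the sign turned with the library total as covariate (0.04) and without Ctrl replicate 1 (0.12). Except for Klf17, the genes of this paragraph and Rfpl4b, Gm4850, Obox3 and Tdpoz1 were named after their values were seen.

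**Figure D3:**
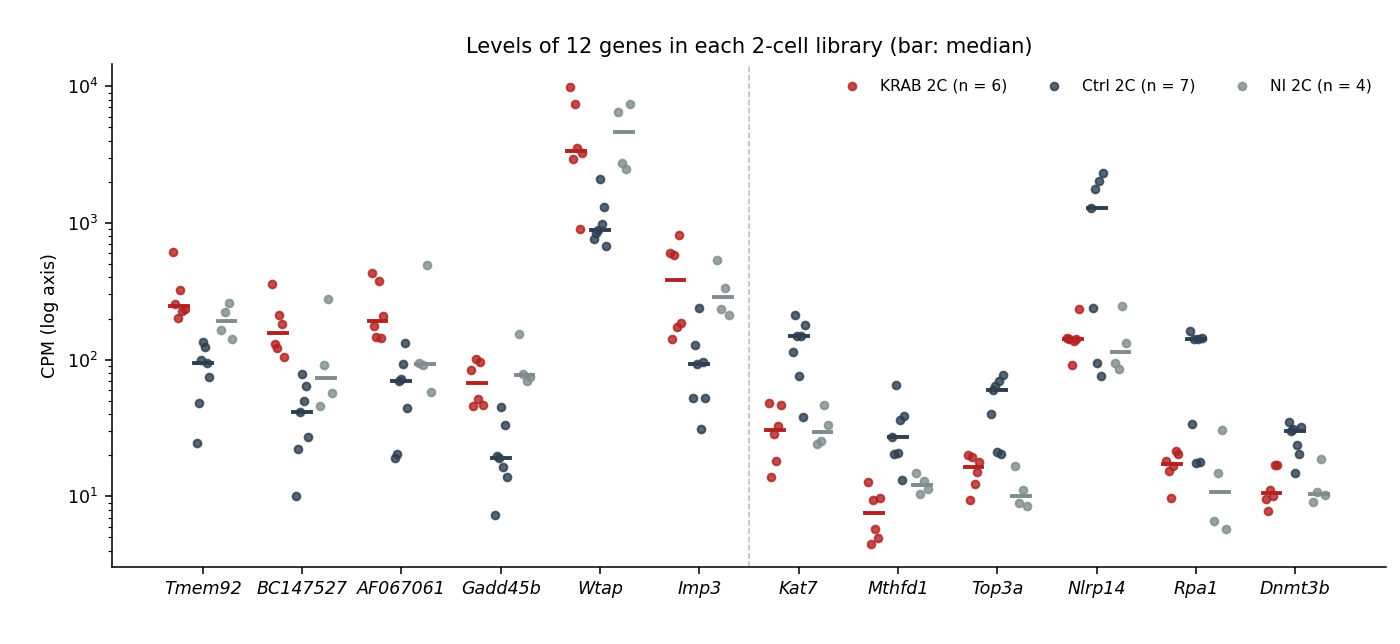
Points are CPM (log axis) of 12 genes in each 2-cell library, red for KRAB (6), dark for Ctrl (7) and grey for NI (4), with a bar at each group's median. KRAB and Ctrl points do not overlap for Tmem92, BC147527, AF067061, Gadd45b, Mthfd1 and Top3a, and the low Ctrl points of Kat7, Nlrp14 and Rpa1 lie among those of KRAB.

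Genes outside the 2-cell wave were also among those higher in KRAB. Gadd45b, a stress-inducible protein linked to DNA repair and demethylation (chromosome 10, 80930073 to 80932204), had 45.6 to 102 CPM (median 67.9) in KRAB and 7.28 to 45.3 CPM (median 18.97) in Ctrl, with the highest Ctrl library just under the lowest KRAB library (1.69 ± 0.42, edgeR adjusted p = 0.222). Rab13, a small GTPase of tight junction traffic, had 8.10 to 17.7 CPM (median 12.05) against 1.30 to 7.61 CPM (median 2.64) (1.69 ± 0.47), and Erp29, a chaperone of the endoplasmic reticulum, 59.5 to 83.4 CPM (median 71.1) against 27.7 to 49.4 CPM (median 37.3) (0.93 ± 0.299). These 3 genes also kept apart between groups, and the last 2 were named for it after their values were seen. Wtap, a subunit of the complex that writes N6-methyladenosine into RNA, stood at 900.3 to 9839 CPM (median 3389) in KRAB and 675 to 2084 CPM (median 887) in Ctrl, and KRAB replicate 5 fell within the Ctrl range (2.11 ± 0.55). Hmgn3, a nucleosome-binding protein, stood at 17.01 to 100.4 CPM (median 52.2) against 10.2 to 43.05 CPM (median 14.9) (1.69 ± 0.44), with Ctrl replicate 6 alone inside the KRAB range. Pdgfa, the ligand of the receptor PDGFRA, stood at 5.32 to 35.7 CPM (median 20.1) against 0.115 to 8.04 CPM (median 4.71) (2.46 ± 0.66). Timp1, an inhibitor of metalloproteinases, stood at 3.19 to 33.2 CPM (median 9.05) against 0 to 4.16 CPM (median 1.02) (3.38 ± 0.78), and Hdhd3, a hydrolase-like protein, at 2.13 to 18.3 CPM (median 11.7) against 0 to 4.78 CPM (median 0.745) (3.42 ± 0.81). NI libraries had 69.9 to 155 CPM of Gadd45b, 2490.4 to 7411 CPM of Wtap and 3.32 to 21.5 CPM of Timp1.

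By p-value, most of the leading genes stood lower in KRAB, and they shared a profile across the control libraries. Kat7 (HBO1), a histone acetyltransferase of replication origins (chromosome 11, 95274259 to 95310246), stood at 13.8 to 47.8 CPM (median 30.7) in KRAB and at 38.3 to 212 CPM (median 150.0) in Ctrl, where replicate 6 (38.3 CPM) lay inside the KRAB range and replicate 4 (75.7 CPM) next above it. The 4 NI libraries had 24.03 to 46.6 CPM of Kat7. The log2 fold change of KRAB over Ctrl was -2.07 ± 0.44 (edgeR adjusted p = 0.222), -1.59 with the library total as covariate and -1.26 in the 9 shallower libraries. Mthfd1, a cytosolic enzyme of folate metabolism (chromosome 12, 76255298 to 76319803), stood at 4.49 to 12.8 CPM (median 7.59) against 13.2 to 65.1 CPM (median 27.3), and every KRAB library lay below every Ctrl library. Its difference was -2.03 ± 0.43 (adjusted p = 0.222), and -1.70 and -1.38 in the same alternatives. Top3a, a topoisomerase that resolves DNA and mitochondrial DNA intermediates, also kept the groups apart by a narrow gap, with 9.35 to 20.2 CPM (median 16.5) in KRAB and 20.3 to 77.2 CPM (median 60.4) in Ctrl (-1.69 ± 0.402).

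RNA-processing enzymes stood among these genes. Elp2, a subunit of Elongator, which modifies the wobble base of tRNAs, stood at 3.77 to 17.9 CPM (median 9.15) in KRAB and 8.37 to 145 CPM (median 79.4) in Ctrl (-2.72 ± 0.59), and Elp3, its catalytic subunit, at 2.12 to 16.7 CPM (median 5.18) against 1.20 to 96.8 CPM (median 48.3) (-2.39 ± 0.78). Elac2, which trims the 3′ ends of tRNA precursors, stood at 6.12 to 17.04 CPM (median 9.36) against 9.57 to 139.7 CPM (median 71.9) (-2.81 ± 0.62). In each case Ctrl replicates 1, 3, 5 and 7 lay far above all KRAB libraries, and Ctrl replicate 6 lay within or below the KRAB range. Parn, a deadenylase, stood at 9.73 to 23.1 CPM (median 12.9) against 14.3 to 123 CPM (median 74.4) (-2.16 ± 0.504), and Cmtr1, which methylates the mRNA cap, at 11.5 to 26.6 CPM (median 18.1) against 14.3 to 85.8 CPM (median 73.8) (-1.69 ± 0.41). Eftud2, a GTPase of the spliceosome, stood at 1.12 to 9.85 CPM (median 4.73) against 1.20 to 70.5 CPM (median 37.9) (-2.66 ± 0.69). The NI range was 21.4 to 25.7 CPM for Cmtr1 and 2.04 to 6.64 CPM for Eftud2. As a whole, the 63 tested genes of tRNA processing and modification had a median of 0.18, with 2 higher and 6 lower at an unadjusted p under 0.05, and the 61 of the spliceosome a median of 0.04 with 1 higher and 5 lower. U2af1, which reads the 3′ splice site, was the higher spliceosome gene, at 218 to 476 CPM (median 248) against 20.3 to 349 CPM (median 78.04) (1.44 ± 0.52), with Ctrl replicate 6 alone within the KRAB range.

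Across the 1382 lower genes, the lowest Ctrl value belonged to replicate 4 or 6 in 1255 genes (90.8%), against 5625 of all 11799 genes (47.7%). The highest Ctrl value belonged to replicate 1, 5 or 7 in 1179 of them (85.3%), against 4884 of all genes (41.4%). Across the 456 higher genes the order was turned round, with the lowest Ctrl value in replicate 1, 5 or 7 in 355 genes (77.9%), against 4587 of all genes (38.9%), and the highest in replicate 4 or 6 in 332 (72.8%), against 3789 of all genes (32.1%). Replicates 4 and 6 had the smallest totals in Ctrl, 1543640 and 1043740 counts. Replicate 1 came next with 4440172 counts, below replicate 2 with 7176488. The mean log2(CPM + 1) over maternal oocyte transcripts was 8.43 in replicate 1 and 6.42 in replicate 2. The lower and higher genes were selected on the same library values, so the shares are a description. The part of depth in the shares was not tested beyond the alternatives given above.

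Maternal transcripts as a list stood lower in KRAB, with a large spread in Ctrl. Of 76 tested, 59 had a negative log2 fold change, 20 were lower and 1 higher at an unadjusted p under 0.05, and the median was -0.83. The median was -0.44 with the total as covariate, -0.45 in the 9 shallower libraries and -0.71 in the thinned libraries. With each library left out it lay between -0.98 and -0.57. The mean log2(CPM + 1) of the list was 6.26 to 7.57 (median 6.88) for KRAB, 5.84 to 8.43 (median 8.01) for Ctrl and 5.92 to 7.21 for NI. Only Ctrl replicates 1, 3, 5 and 7 lay above the highest KRAB library, and only Ctrl replicate 4 lay below the lowest.

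Leading maternal genes were high in the same Ctrl libraries. Nlrp14, an oocyte NLR protein needed for early development (chromosome 7, 107166990 to 107198102), stood at 91.5 to 234 CPM (median 142) in KRAB and 76.5 to 2332 CPM (median 1289.6) in Ctrl, where replicates 4 and 6 had 94.7 and 76.5 CPM and replicate 7 had 2332 CPM (-2.91 ± 0.72, edgeR adjusted p = 0.222). Nlrp5 (MATER), a core of the subcortical maternal complex, stood at 25.5 to 56.97 CPM (median 41.6) against 27.7 to 323 CPM (median 229) (-2.25 ± 0.54), and Padi6, which builds the egg's cytoplasmic lattices, at 54.6 to 81.2 CPM (median 64.1) against 44.2 to 422 CPM (median 291) (-1.75 ± 0.48). Nlrp9b stood at 12.7 to 32.2 CPM (median 17.1) against 10.2 to 247 CPM (median 99.2) (-2.56 ± 0.69). For all 4 genes Ctrl replicates 4 and 6 lay within or below the KRAB range, and Ctrl replicates 1, 3, 5 and 7 lay above it. Zp2, a zona pellucida glycoprotein, differed by -1.39 ± 0.48 and Wee2, a kinase that keeps oocytes arrested in meiosis, by -1.64 ± 0.59. Nlrp genes are a family of related sequences, although Nlrp5 and Nlrp14 shared 0 of their 31-base words.

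Other abundant maternal transcripts had either sign. Dppa3, which protects maternal DNA methylation in the zygote, stood at 2988 to 12709 CPM (median 5548) in KRAB and 1789.6 to 22530.5 CPM (median 2942) in Ctrl (0.36 ± 0.67). Omt2b, an oocyte maturation gene, stood at 5537 to 19620.1 CPM (median 11862) against 2352 to 31486 CPM (median 4190.1) (0.48 ± 0.696). Ctrl replicate 6 held the highest level of both genes among the 13 libraries, and both signs turned in the 9 shallower libraries (-0.44 and -0.30). Zbed3, another abundant member, stood at 1279 to 15641 CPM (median 8346) against 948 to 24848 CPM (median 20316) (-0.89 ± 0.78). Lsm14b, an RNA-binding protein of stored mRNA, was the only member higher at an unadjusted p under 0.05, at 52.7 to 187 CPM (median 79.6) against 20.9 to 73.4 CPM (median 39.8) (1.21 ± 0.51). Zp2, Wee2, Dppa3 and Lsm14b were named after their values were seen.

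Machinery that a KRAB domain recruits was described next, because the treatment bears its name. Of 42 tested genes, 9 were lower and 1 higher at an unadjusted p under 0.05, and the median was -0.11, close to that of all genes. Trim28, the docking protein itself, stood at 31.7 to 90.8 CPM (median 54.6) in KRAB and 15.2 to 121 CPM (median 29.9) in Ctrl (0.23 ± 0.49, unadjusted p = 0.636), and the KRAB range lay inside the Ctrl range. Setdb1, its histone H3 lysine 9 methyltransferase, stood at 36.1 to 54.6 CPM (median 44.6) against 29.6 to 106 CPM (median 90.96) (-0.803 ± 0.38, unadjusted p = 0.0480), with Ctrl replicates 2 and 4 inside or below the KRAB range. Atf7ip, the partner that stabilises SETDB1, stood at 13.6 to 72.3 CPM (median 24.95) against 14.3 to 161 CPM (median 124) (-1.63 ± 0.504). Trim28 and Setdb1 were named after their values were seen.

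Genes of DNA methylation were among the lower members of this list. Dnmt3b, a de novo methyltransferase, stood at 7.86 to 17.1 CPM (median 10.6) in KRAB and 14.8 to 35.2 CPM (median 29.96) in Ctrl, with KRAB replicates 5 and 6 above the lowest Ctrl library (-1.14 ± 0.36, edgeR adjusted p = 0.224). Dnmt1, the maintenance methyltransferase, differed by -0.91 ± 0.36 and was named after its values were seen. Uhrf1, which guides DNMT1 to replicating DNA, stood at 44.2 to 115 CPM (median 81.7) against 52.6 to 415 CPM (median 299.9) (-1.59 ± 0.54). Zfp57, a KRAB zinc finger protein that keeps imprints, stood at 32.2 to 181 CPM (median 131) against 31.1 to 855 CPM (median 616) (-1.97 ± 0.71), and Rbbp7, a histone-binding subunit of NuRD, at 242 to 1052 CPM (median 705) against 159 to 3990.1 CPM (median 2184) (-1.46 ± 0.64). Ctrl replicates 1, 3, 5 and 7 were above every KRAB library for Uhrf1, Zfp57 and Rbbp7, and Ctrl replicates 2, 4 and 6 were not. Cbx3 (HP1 gamma) ran the other way, at 333 to 3233 CPM (median 702) against 19.4 to 967 CPM (median 184) (1.91 ± 0.91), with 5 of the 7 Ctrl libraries below the lowest KRAB library.

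Genes that restrict LINE-1 or act in the piRNA pathway were also described. Of 46 tested, 7 were lower and 1 higher at an unadjusted p under 0.05. The median was -0.27, and it was -0.05 in the 9 shallower libraries and -0.17 in the thinned libraries. Adar, which edits double-stranded RNA, stood at 9.47 to 16.9 CPM (median 12.7) in KRAB and 14.3 to 55.8 CPM (median 33.4) in Ctrl, with Ctrl replicate 6 alone inside the KRAB range (-1.49 ± 0.45). Ddx4 (VASA), a germline helicase, stood at 21.9 to 50.8 CPM (median 37.4) against 9.57 to 212 CPM (median 171) (-1.86 ± 0.57). Tdrd1, a scaffold of piRNA production, differed by -1.81 ± 0.67 and Piwil1, a PIWI protein, by -1.898 ± 0.68. For these 3 piRNA genes Ctrl replicates 4 and 6 lay within or below the KRAB range.

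Interferon and nucleic acid sensing genes had no common direction. Of 26 tested, 2 were higher and 4 lower at an unadjusted p under 0.05, with a median of -0.19. Bst2 (tetherin), a membrane protein that holds back viruses and is also on the LINE-1 list, stood at 17.01 to 43.8 CPM (median 24.8) in KRAB and 7.61 to 22.7 CPM (median 12.5) in Ctrl (1.11 ± 0.44). Mavs, the adaptor of RNA sensing on mitochondria, stood at 10.1 to 33.3 CPM (median 23.2) against 19.13 to 82.5 CPM (median 50.003) (-1.11 ± 0.39). Cxcl10, an interferon-induced chemokine, stood at 1.44 to 14.8 CPM (median 4.17) against 0 to 4.78 CPM (median 0.377) (2.05 ± 0.84), at levels where 1 Ctrl library had no count. Ifitm3, the abundant interferon-induced membrane protein, differed by -0.17 ± 0.66, and its sign turned with limma-voom (0.06 with quality weights and 0.22 without) and without Ctrl replicate 6 (0.44).

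Among DNA replication, repair and division genes more were lower than higher, as among all genes tested, of which 11.7% were lower and 3.86% higher at an unadjusted p under 0.05. Of 56 DNA replication genes tested, 10 were lower and 0 higher at an unadjusted p under 0.05 (median -0.36). Of 67 DNA repair and p53 genes, 11 were lower and 1 higher (median -0.503), and of 81 mitosis and kinetochore genes, 12 were lower and 1 higher (median -0.26). In the 9 shallower libraries the 3 medians were -0.16, -0.22 and -0.16, against -0.04 for all genes. In the thinned libraries they were -0.35, -0.52 and -0.23, against -0.07 for all genes. Rpa1, which coats single-stranded DNA, stood at 9.65 to 21.6 CPM (median 17.3) in KRAB and 17.5 to 162 CPM (median 142) in Ctrl, where replicates 1, 3, 5 and 7 had 162, 142, 142 and 143 CPM and replicates 2, 4 and 6 had 33.8, 17.5 and 17.9 CPM (-2.48 ± 0.59). Those levels fell into a high and a low set with nothing between, and the KRAB and NI libraries lay with the low set or below it.

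Further genes of these lists, and Pot1a and Cep95 from the 20 lower genes with the smallest p, were high in the same 4 Ctrl libraries. Mcm2 and Mcm4, subunits of the replicative helicase, differed by -1.63 ± 0.498 and -1.34 ± 0.41. Trp53bp1 (53BP1), which marks DNA breaks, stood at 37.4 to 74.2 CPM (median 49.3) against 26.3 to 541 CPM (median 320.5) (-2.31 ± 0.58), and Pot1a, which caps telomeres, at 4.12 to 14.9 CPM (median 6.97) against 4.78 to 69.2 CPM (median 46.4) (-2.36 ± 0.57). Fancc, of the Fanconi anaemia core complex, differed by -1.801 ± 0.57 and Rad52, which anneals DNA strands, by -1.94 ± 0.65. Ttk (MPS1), the spindle checkpoint kinase, stood at 14.4 to 68.5 CPM (median 40.8) against 27.5 to 376 CPM (median 225) (-2.22 ± 0.62), and Zw10, which brings dynein to kinetochores, at 6.38 to 19.4 CPM (median 12.7) against 7.17 to 104 CPM (median 83.8) (-2.21 ± 0.52). Anapc4, a subunit of the anaphase-promoting complex, differed by -1.68 ± 0.52 and Cep95, a centrosomal protein, by -1.97 ± 0.49. In all 10 genes Ctrl replicates 1, 3, 5 and 7 exceeded the highest KRAB library.

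Nuclear pore genes followed. Of 59 tested, 11 were lower and 1 higher at an unadjusted p under 0.05. The median of -0.44 became -0.05 in the 9 shallower libraries and -0.05 without Ctrl replicate 2, and was -0.36 in the thinned libraries. Nup93, of the inner ring, stood at 20.1 to 34.02 CPM (median 24.5) in KRAB and 14.3 to 150.2 CPM (median 109) in Ctrl (-1.83 ± 0.49), and Nup54, of the central channel, at 41.2 to 60.3 CPM (median 50.8) against 39.5 to 311 CPM (median 184) (-1.65 ± 0.48). Ctrl replicate 6 was the lowest of the 13 libraries for both.

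A few lower genes separated the groups fully at low levels. Fgfr1, a receptor of fibroblast growth factors, stood at 2.82 to 8.10 CPM (median 6.41) in KRAB and 9.57 to 25.6 CPM (median 16.7) in Ctrl (-1.46 ± 0.42), and Egf, the epidermal growth factor precursor, at 4.32 to 6.42 CPM (median 5.31) against 8.37 to 25.01 CPM (median 11.5) (-1.35 ± 0.403). Atf6, a sensor of protein folding in the endoplasmic reticulum, stood at 2.88 to 8.10 CPM (median 4.89) against 9.45 to 30.03 CPM (median 12.4) (-1.61 ± 0.49). Ercc3 (XPB), a helicase of transcription factor TFIIH, stood at 4.49 to 15.9 CPM (median 11.5) against 16.996 to 29.8 CPM (median 19.13) (-1.04 ± 0.38), and Wdr70, a WD repeat protein, at 7.92 to 14.8 CPM (median 10.2) against 16.996 to 22.6 CPM (median 19.13) (-0.87 ± 0.36). The highest NI library reached into the Ctrl range for each of the 5 genes. The NI median lay below the lowest Ctrl library for Fgfr1 (8.57 CPM), Egf (7.66 CPM), Atf6 (8.52 CPM) and Ercc3 (15.5 CPM). Except for Ercc3, the 5 genes were named after their values were seen.

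Further lower genes of the leading 20 came from diverse functions. Psmd2, a subunit of the proteasome's regulatory particle, stood at 33.7 to 69.3 CPM (median 55.8) in KRAB and 39.5 to 303 CPM (median 254) in Ctrl (-1.84 ± 0.47), Ccnt2, a cyclin of the elongation factor P-TEFb, at 10.1 to 29.8 CPM (median 16.3) against 22.2 to 93.7 CPM (median 56.8) (-1.59 ± 0.41), and Pecam1, an adhesion molecule, at 5.76 to 17.9 CPM (median 12.3) against 9.57 to 74.4 CPM (median 46.4) (-1.75 ± 0.44). Abcc3, an export pump, differed by -2.08 ± 0.51. By size, Itprip, which modulates a calcium channel, stood at 0 to 4.32 CPM (median 1.17) against 0 to 50.99 CPM (median 29.9) (-3.77 ± 1.18), and Arhgef1, an exchange factor for RhoA, at 0 to 6.48 CPM (median 3.83) against 0.924 to 61.8 CPM (median 33.4) (-3.19 ± 1.01). In Ctrl replicates 2, 4 and 6 neither gene exceeded 2.39 CPM.

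Ribosomal protein genes formed the list with the highest median towards KRAB among those with at least 20 tested genes. Of 81 tested, 79 had a positive log2 fold change, yet 1 was higher and 0 lower at an unadjusted p under 0.05. The median was 1.004, and 0.90 with the library total as covariate. It was 0.45 in the 9 shallower libraries, 0.94 in the thinned libraries and 1.63 without Ctrl replicate 6. Averaged over these genes, log2(CPM + 1) was 6.45 to 8.69 for KRAB, 4.06 to 8.07 for Ctrl and 6.55 to 9.20 for NI. Rpl22l1, a paralogue of a large-subunit protein, stood at 6.38 to 40.9 CPM (median 13.8) in KRAB and 1.09 to 22.7 CPM (median 4.15) in Ctrl (1.52 ± 0.702), and Rps10, of the small subunit, at 106 to 458 CPM (median 219) against 15.5 to 287 CPM (median 69.7) (1.34 ± 0.66). Ctrl replicates 1, 5 and 7 were low for both genes and replicate 6 was the highest Ctrl library. Rplp0, an abundant member, stood at 605 to 2489 CPM (median 824) against 301 to 1113 CPM (median 648) (0.697 ± 0.46). Ribosomal protein genes have many processed pseudogenes, among which RSEM may divide reads.

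Mitochondrial and nucleolar lists had smaller medians of the same sign. The 76 mitochondrial ribosomal proteins had a median of 0.45, with 3 higher and 2 lower at an unadjusted p under 0.05, and the 76 nuclear subunits of the respiratory chain a median of 0.69, with 1 each way. In the 9 shallower libraries both medians were 0.06, and in the thinned libraries they were 0.42 and 0.63. Mrps26 and Mrps6, of the small mitochondrial subunit, stood at 64.2 to 190.2 CPM (median 75.7) against 11.5 to 87.3 CPM (median 25.1) (1.64 ± 0.47) and at 69.9 to 191 CPM (median 105) against 4.86 to 84.98 CPM (median 25.6) (1.72 ± 0.55). Mrps27, of the same subunit, had the opposite sign (-1.25 ± 0.51). Atp5g3, which forms the rotor ring of ATP synthase, differed by 1.500 ± 0.704, while Sdha, the catalytic subunit of complex II, stood at 12.003 to 72.7 CPM (median 45.7) against 13.2 to 282 CPM (median 241) (-1.88 ± 0.62). Imp3, a nucleolar factor for the small subunit, stood at 142 to 823 CPM (median 382) against 31.2 to 239 CPM (median 92.2) (2.08 ± 0.54, edgeR adjusted p = 0.222), and Npm1, nucleophosmin, differed by 0.36 ± 0.44 within a list of 51 ribosome biogenesis genes whose median was 0.17.

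**Figure D4:**
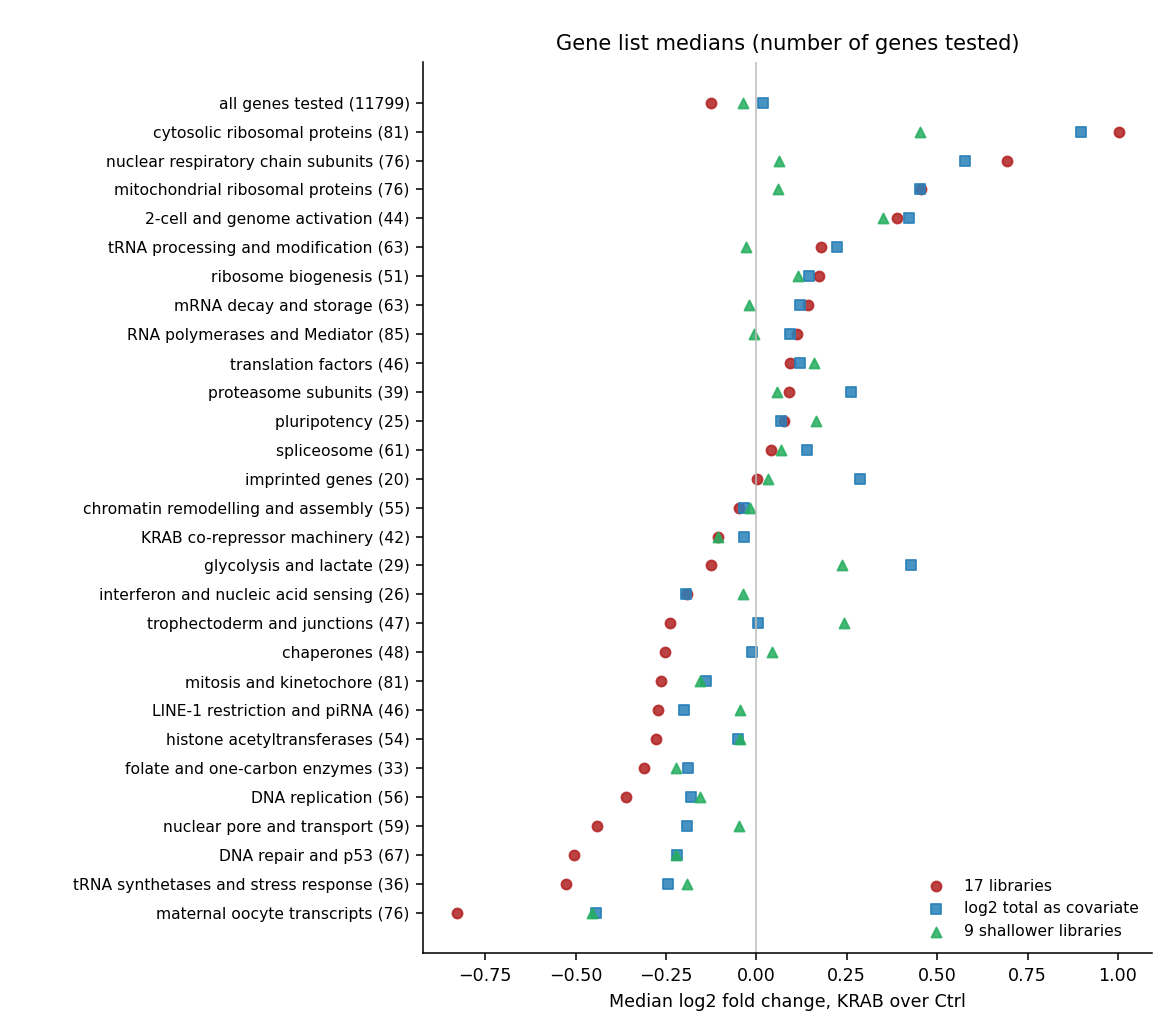
Each row is a gene list with at least 20 tested genes (number in brackets), and each symbol its median log2 fold change of KRAB over Ctrl with 17 libraries, with the log2 library total as covariate, or in the 9 shallower libraries. The medians of ribosomal proteins (1.004) and of maternal transcripts (-0.83) lie at the ends, and both lie nearer to 0 in the 9 shallower libraries (0.45 and -0.45). In the thinned libraries, which are not drawn, they were 0.94 and -0.71.

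Transcript length went along with these values. Among 11692 tested genes with a length in GENCODE vM21, the median transcript measured 3024.5 bases, against 1913.5 bases for genes higher and 3602 bases for genes lower at an unadjusted p under 0.05. With the genes in 5 equal groups from the shortest transcripts to the longest, the median log2 fold change was 0.47, -0.14, -0.35, -0.35 and -0.21, and in the 9 shallower libraries it was 0.14, -0.06, -0.15, -0.11 and -0.04. The group with the shortest transcripts kept a median of 0.42 over 2159 genes when ribosomal and respiratory chain genes were left out. Lists whose proteins are small are also lists of short transcripts, with a median of 887 bases for ribosomal proteins. The maternal list had a median length of 1814 bases and a median log2 fold change of -0.83. For the 2-cell list these were 1921 bases and 0.39. Both lengths lie in the second group (1697 to 2564 bases), whose median log2 fold change was -0.14. The part of length in the list medians was not tested.

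**Figure D5:**
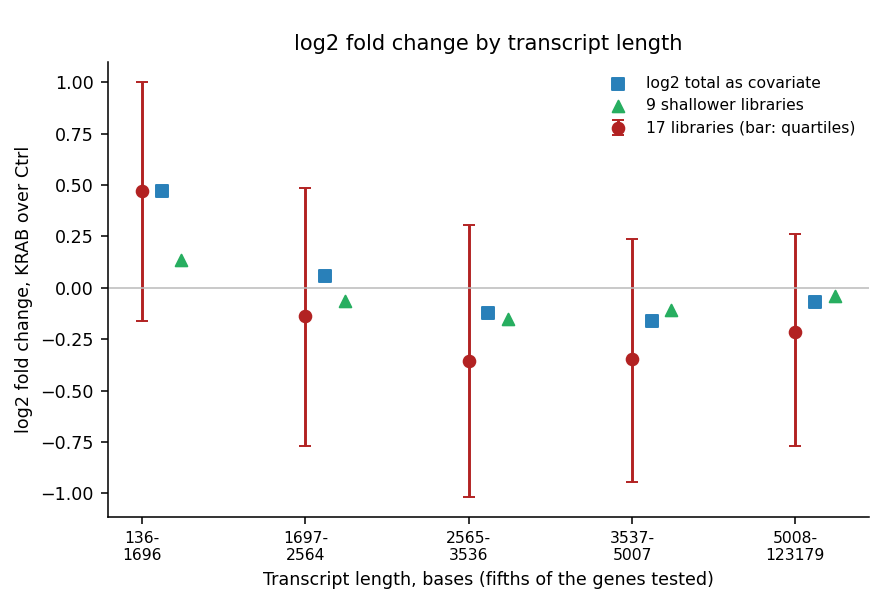
Median log2 fold change of KRAB over Ctrl (y axis) in 5 equal groups by transcript length in bases (x axis), with quartile bars for 17 libraries and further symbols for the fit with the library total as covariate and for the 9 shallower libraries. The group with the shortest transcripts (up to 1696 bases) has the only median above 0 with 17 libraries, 0.47.

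Metabolic, stress and translation lists held members of both signs. Of 36 tRNA synthetase and stress response genes tested, 6 were lower and 1 higher at an unadjusted p under 0.05 (median -0.53). Slc7a11, the cystine importer, stood at 4.24 to 16.1 CPM (median 9.22) in KRAB and 9.24 to 47.95 CPM (median 34.05) in Ctrl (-1.56 ± 0.48), and Wars, the tryptophan tRNA synthetase, at 11.1 to 29.6 CPM (median 20.9) against 2.39 to 113 CPM (median 83.4) (-1.61 ± 0.55). Of 33 folate and one-carbon genes, 5 were lower and 0 higher (median -0.31), Mthfd1 and Fpgs, which retains folates in the cell (-1.58 ± 0.57), among the lower. Of 48 chaperones, 2 were higher and 7 lower. Hspb1 (HSP27) stood at 93.6 to 352 CPM (median 162) against 1.33 to 173 CPM (median 23.1) (2.11 ± 0.76), while Hspa9, the mitochondrial HSP70, differed by -0.99 ± 0.37. Eif4ebp1, which binds and blocks the cap-binding factor eIF4E, stood at 13.8 to 221 CPM (median 64.997) against 11.2 to 81.3 CPM (median 14.3) (1.84 ± 0.62), within 46 translation factors whose median was 0.09.

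Genes of later lineages and of energy use showed no common direction either. The pluripotency list had a median of 0.08 over 25 genes. Sox2 stood at 2.13 to 8.64 CPM (median 3.99) in KRAB and 0 to 3.23 CPM (median 0.121) in Ctrl (2.63 ± 0.92), and Klf4 differed by 1.12 ± 0.59 (unadjusted p = 0.0726). Among 47 genes of trophectoderm and cell junctions, 3 were higher and 3 lower at an unadjusted p under 0.05. The polarity kinase Prkcz stood at 29.5 to 92.1 CPM (median 40.6) against 3.91 to 39.4 CPM (median 14.7) (1.69 ± 0.55), its partner Pard3 at 129 to 306 CPM (median 219) against 161 to 752 CPM (median 613) (-1.24 ± 0.43), and Id2, an inhibitor of bHLH factors, differed by 1.29 ± 0.499. Ldha, lactate dehydrogenase A, differed by 1.36 ± 0.63 and Mpc1, the mitochondrial pyruvate carrier, by 1.202 ± 0.54, and in the 9 shallower libraries by 1.57 and 0.43. Mest, an imprinted gene read from the paternal allele, stood at 13.4 to 37.1 CPM (median 28.4) against 17.9 to 141 CPM (median 87.3) (-1.64 ± 0.53).

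Further lists lay near the median of all genes or rested on few genes. For histone acetyltransferase complexes, which include Kat7, 2 of 54 genes were higher and 4 lower at an unadjusted p under 0.05, with a median of -0.28. For chromatin remodelling and assembly, 0 of 55 genes were higher and 4 lower at an unadjusted p under 0.05, with a median of -0.05. For RNA polymerases and Mediator, 2 of 85 genes were higher and 8 lower at an unadjusted p under 0.05, with a median of 0.11. For mRNA decay and storage, 4 of 63 genes were higher and 6 lower at an unadjusted p under 0.05, with a median of 0.14. For the proteasome, 0 of 39 genes were higher and 3 lower at an unadjusted p under 0.05, with a median of 0.09. Of replication-dependent histones 11 genes were tested, 1 higher and 0 lower, and of sperm markers 5 genes, 0 higher and 0 lower. The 29 glycolysis and lactate genes had 2 higher and 1 lower (median -0.13), and the 20 imprinted genes 1 higher and 1 lower.

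Cumulus and granulosa cells nurse the egg in the ovary, and their markers were higher in some KRAB libraries. Of 18 tested, 13 had a positive log2 fold change, and 5 were higher and 1 lower at an unadjusted p under 0.05. Summed over the list, the level was 91.4 to 680.3 CPM (median 144) for KRAB, 70.4 to 250.2 CPM (median 153) for Ctrl and 91.3 to 349 CPM for NI, and KRAB replicates 2 and 6 were the high ones with 548 and 680.3 CPM. Of 8 defining markers, Hsd3b1 and Cyp11a1, enzymes of steroid synthesis, had 1302 and 434 counts in KRAB (up to 225 and 111 CPM in a library) and 706 and 315 in Ctrl (up to 63.9 and 27.6 CPM). Inha, the inhibin alpha subunit, had 177 counts in KRAB (up to 43.02 CPM in a library) and 392 in Ctrl (up to 34.2 CPM). Cyp19a1, aromatase, had 25 counts in KRAB (up to 3.37 CPM) and 319 in Ctrl (up to 20.3 CPM). These counts are sums over libraries of unequal depth and number. Lhcgr and Amh had no counts in any of the 13 libraries, Foxl2 had no counts in Ctrl and 15 in KRAB, and Fshr had 5 counts in KRAB and 2 in Ctrl.

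Genes among those with the largest positive fold changes were high in KRAB replicates 2 and 6. Some were also high in KRAB replicate 4, whose summed cumulus level was 125 CPM. Akr1c18, a progesterone-degrading enzyme of the ovary, had 252, 71.3 and 399 CPM in KRAB replicates 2, 4 and 6 and at most 0.379 CPM in the other KRAB libraries, against 0 to 9.77 CPM (median 0.126) in Ctrl (5.46 ± 1.61). S100a6, a calcium-binding protein, had 95.02, 56.2 and 194 CPM in KRAB replicates 2, 4 and 6, against 0 to 17.5 CPM (median 7.41) in Ctrl (3.15 ± 1.23). Cd52, a surface glycoprotein, had 82.7, 3.60 and 129 CPM there, against 0 to 14.3 CPM (median 0.745) in Ctrl (3.78 ± 1.49). For Cd52, KRAB replicates 3 and 5 (7.53 and 8.72 CPM) lay above replicate 4. Inhba, the activin beta A subunit, differed by 3.01 ± 1.17 and Sparc, a matrix protein, by 2.13 ± 0.84, again with KRAB replicates 2 and 6 the highest. NI replicate 1 had 529.5 CPM of S100a6 and 1744 CPM of Cd52, above every KRAB library. The share of cumulus RNA in these 5 values was not tested. Tmem92, AF067061 and BC147527 were highest in KRAB replicate 1, whose summed cumulus level was the lowest in KRAB. This is 1 library, with the smallest total in KRAB (1296375 counts) and the highest level of the ribosomal RNA gene Rn45s in KRAB (93940.5 CPM). The share of cumulus RNA in the levels of these 3 genes was not tested either.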

How the data were processed

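The deposited table holds expected counts per gene, made by the authors with Bowtie2, RSEM and the mm10 genome, per the submitters' processing notes. Versions: not given in the sources used here. Columns were matched to samples by the names in the labels, replicates were numbered in accession order, and 0 columns of per-sample values were left unused. Expected counts were rounded, genes were kept by filterByExpr (minimum count 10, minimum total 15), and KRAB was compared with Ctrl in the fit of 17 libraries with edgeR 4.0.16 (TMM, robust quasi-likelihood test, Benjamini-Hochberg adjustment), in R 4.3.3. Levels are CPM, that is counts scaled by the library total times its TMM factor, and log2 fold changes are KRAB over Ctrl ± SE from the fit. Library measures were tested with SciPy 1.17.1 in Python 3.11.15. Alternatives used limma 3.58.1 and DESeq2 1.42.0. Another 9 settings were tried, 13 fits with a library left out and 3 settings added after seeing the data (thinning, the 9 shallower libraries, limma-voom without quality weights). The edgeR script was tested on simulated data with a smaller spread than these libraries, whose common coefficient of variation in the fit was 0.74. That test therefore does not show which changes the fit could find in these libraries.

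Named genes had a mean of at least 10 CPM in KRAB or Ctrl and a true gene symbol, not a provisional model number. They were drawn from the 20 lower and 10 higher with the smallest p, the 5 largest each way, and from each of 31 lists up to 4 with the smallest p and the 2 most abundant. Gm8300, Cxcl10 and Sox2 miss the conditions on level or symbol and were named as list members. Others are named as chosen after their values were seen. The members and lists were chosen with earlier results of these data known. Coordinates are GENCODE vM21 on GRCm38, in which 98.5% of symbols were matched. Counting was not stated to use strand, so overlapping antisense genes cannot be told apart. 1 gene that the rule names is not reported here.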

Additional observations from a re-analysis of the deposited data

Results flagged for a closer look

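Within the KRAB or the Ctrl group, 20 values stood apart from the rest of their group by Dixon's criterion, out of 242 groups of values examined, where chance gives about 1 in 20. Of these, 10 belonged to Ctrl replicate 6, the library with the smallest total. It was the highest Ctrl library for the 2-cell genes Tcstv3 (289 CPM, next 139) and Tcstv1 (479 CPM, next 185), and for the maternal genes Dppa3 (22531 CPM, next 4841) and Omt2b (31486 CPM, next 10749). It was also the highest for Rpl22l1 (22.7 CPM), Atp5g3 (112 CPM), Hmgn3 (43.05 CPM), Hdhd3 (4.78 CPM), U2af1 (349 CPM) and Id2 (45.4 CPM).

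KRAB replicate 1 stood above the other KRAB libraries for Tmem92 (618 CPM, next 326), Obox3 (1613 CPM, next 489.7), Tdpoz1 (409 CPM, next 83.5), Rplp0 (2489 CPM) and Hspa9 (198 CPM). KRAB replicate 6 was high for Nlrp14 (234 CPM, next 144), and KRAB replicate 3 was low for Fgfr1 (2.82 CPM, next 6.36). Ctrl replicate 1 was high for Zscan4c (531 CPM, next 169) and for the share of all counts taken by Ccdc82 (19.6%, next 8.35%), a coiled-coil gene. Ctrl replicate 4 was high for Mrps26 (87.3 CPM, next 38.03).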

How the results depend on the processing

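No paired analysis was possible because the labels give no replicate numbers. Against 0 genes called by edgeR, DESeq2 called 200 (46 higher, 154 lower), limma-voom with quality weights 5234 (2562 higher, 2672 lower) and a fit of all 36 libraries 6 (1 higher, 5 lower); with a library left out the count ran from 0 to 159 (0 to 69 higher, 0 to 90 lower), and was above 0 only without Ctrl replicate 6. At an unadjusted p under 0.05, 456 of 11799 genes tested were higher. This became 817 of 19443 with DESeq2, 3079 of 11799 with limma-voom and 1495 of 11799 with limma-voom without quality weights. It was 1138 of 19443 without a filter, 205 of 7699 at a minimum count of 50 and 258 of 9396 in libraries thinned to 1043740 counts. In the 9 shallower libraries it was 85 of 11438, and with a library left out it ran from 248 to 1464. The lower genes, 1382 of 11799, became 3241 of 11799 with limma-voom and 2145 of 13158 with 36 libraries. They became 148 of 11799 with the library total as covariate and 144 of 11438 in the 9 shallower libraries. With a library left out they ran from 855 to 1790. Signs turned for Zscan4c (0.041 with the total as covariate, 0.12 without Ctrl replicate 1, and -1.04 at the other end without KRAB replicate 2), Dppa3 (-0.44) and Omt2b (-0.30) in the 9 shallower libraries, and Ifitm3 (0.063 with limma-voom, 0.22 without its quality weights, 0.44 without Ctrl replicate 6, and -0.43 without KRAB replicate 3). The Ccdc82 share differed by -0.202 percentage points, and by -1.46 to 1.63 with a library left out (0.818 without KRAB replicate 3, 0.725 without KRAB replicate 5, 1.63 without Ctrl replicate 1). The log10 total differed by -0.385 to -0.221 and genes detected by -807.8 to -60 with a library left out. The cause of these shifts was not tested. Over single genes and alternatives, 2594 values kept their direction and side of the threshold and 182 passed it. Depth and spread limit precision: the median half-width of a gene's 95% interval was 1.22 on the log2 scale.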
